A study of Mus musculus with 9 samples.

Results

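The genes described here make, carry, receive and restrain Wnt signals. They were chosen by name: 53 mouse genes for Wnt secretion, ligands, receptors, inhibitors and intracellular transducers, of 18755 genes in the deposited table, and 52 of them had a row. Dkk1 was not analysed here. No value entered the choice as a threshold, but the genes were proposed with earlier results of this same comparison known, so the differences below are a description of these tumors and not independent evidence about the pathway. The tumors were grown from 4T1 cells, a metastatic mammary carcinoma line of a BALB/c mouse, after 1000000 cells had been placed in mammary fat pad number 9 of female BALB/c mice aged 6 to 10 weeks. From day 15 after injection, mice received by mouth for 5 days either the vehicle, 0.5% Natrosol, or 50 mg/kg BI 853520 (BI), an inhibitor of focal adhesion kinase (FAK), dissolved in that vehicle. Messenger RNA of pieces of 3 vehicle-treated tumors (replicates 1 to 3) and 6 BI-treated tumors (replicates 4 to 9) was sequenced. Tumors of a transplanted line in an immunocompetent host hold carcinoma and host cells together, and in such bulk RNA a change in the number of cells of a type cannot be told apart from a change in RNA per cell.

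Wnt proteins are secreted glycoproteins that act over short distances. The acyltransferase Porcupine (Porcn) attaches a lipid to each Wnt in the endoplasmic reticulum, and the carrier Wntless (Wls) takes the acylated ligand to the cell surface, where it binds Frizzled receptors together with Lrp5 or Lrp6, or acts through Ror1, Ror2 and Ryk. In the canonical branch β-catenin escapes destruction by the Axin and Apc complex and activates TCF/LEF factors, and in mammary tissue this branch is known for its part in stem cell maintenance and tumor formation.

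Counts on genes summed to between 21727879 and 33850245 in vehicle-treated and to 16931607 to 22349873 under BI, so that a floor of 3 counts lay between 0.0886 and 0.177 counts per 1000000 (CPM). This floor covers counting error only. The labels do not state that each library came from a separate mouse, and p values measure the spread between these samples. Every epithelial marker looked at (Epcam, Cdh1 and 7 others) was detected, with summed levels of 966 to 1189.6 CPM in vehicle-treated and 759 to 967 CPM in BI-treated tumors. Levels of a gene are given as CPM normalized by edgeR, with the standard deviation (SD) over 3 or 6 tumors. Comparisons of level between genes use counts per kilobase of the deposited gene length, scaled to 1000000 per tumor and called level per length below. A gene is named as called, or as having risen or fallen, where edgeR's quasi-likelihood test gave a p of 0.05 or less after Benjamini-Hochberg adjustment over the 13966 genes tested.

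Under BI, the enzyme gene Porcn fell furthest among the Wnt genes tested. The carrier gene Wls, the ligand gene Wnt4, the receptor gene Fzd1 and the transducer genes Nkd2 and Tcf7l2 rose. So did Notum, Dkk3 and Sfrp1, which are listed here as secreted inhibitors. The receptor genes Fzd6 and Ryk also fell. Of the 49 Wnt genes tested, 8 rose and 3 fell, together 22.4%, where 28.7% of all genes tested were called, 14.6% higher and 14.1% lower. The median log2 fold change over the Wnt genes tested was 0.21, beside -0.00371 over all genes, and 35 of the 49 values were above 0. The BI-treated tumors all exceeded the vehicle-treated ones in 4 Wnt genes (Wnt4, Fzd8, Nkd2 and Tcf7l2) and all lay below them in another 4 (Porcn, Fzd6, Ryk and Axin1), together 16.3%. Of all genes tested, 14.1% were separated upward and 14% downward, together 28.1%. Without vehicle replicate 1 or vehicle replicate 2, the number that rose was 3, and without BI replicate 7 it was 4.

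**Figure D1:**
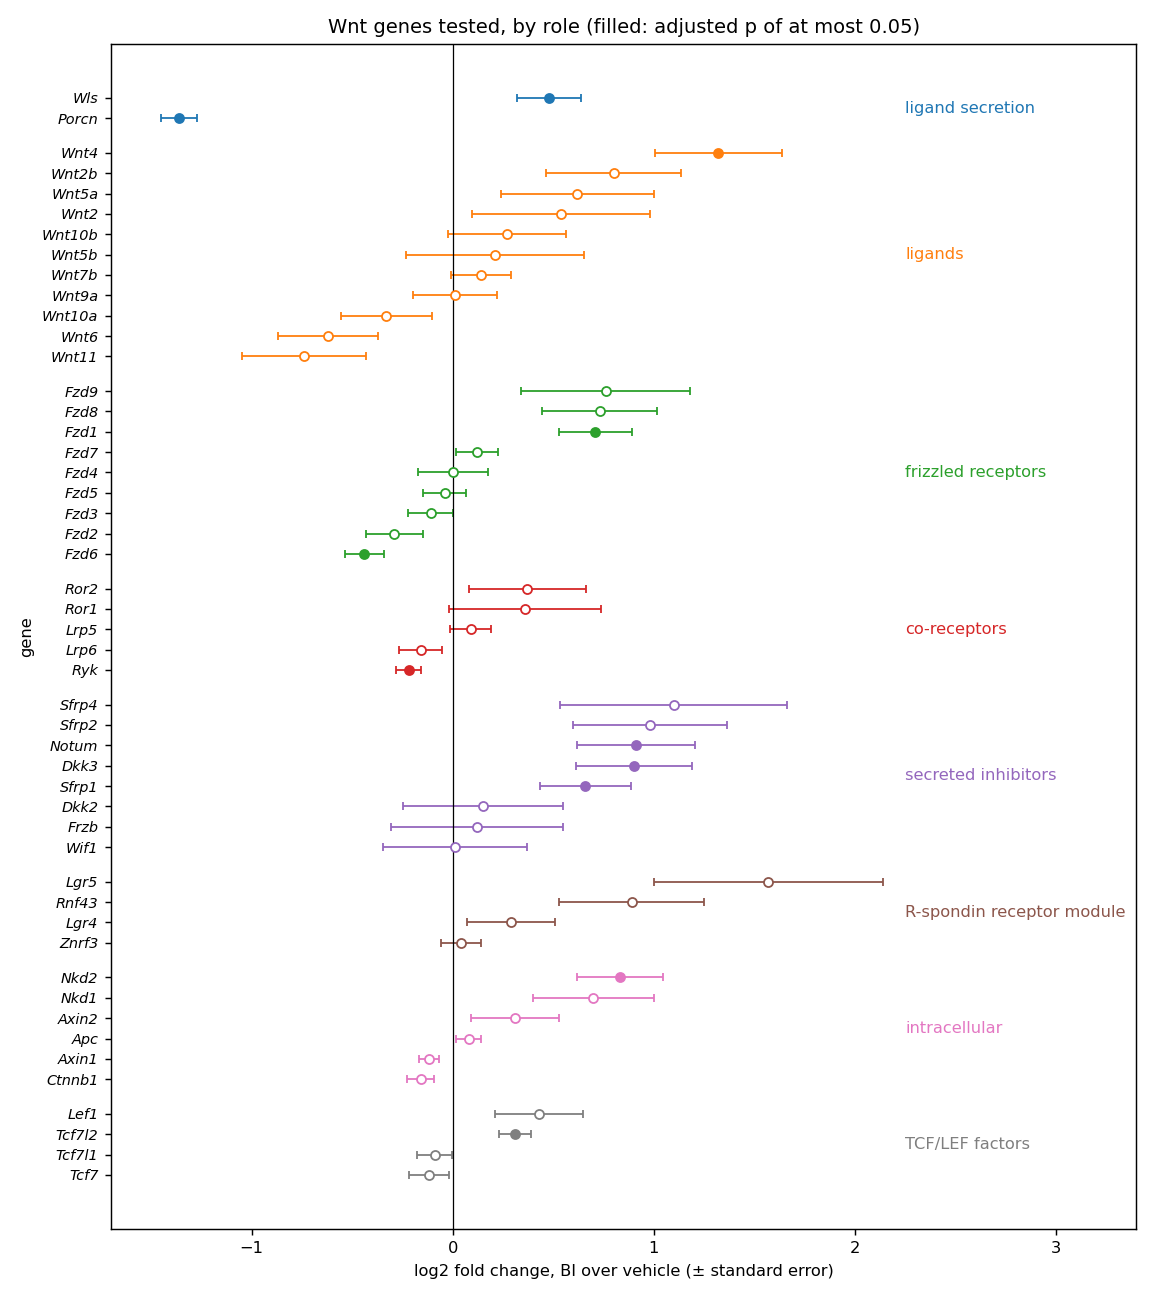
Log2 fold change of BI over vehicle for each of the 49 Wnt genes tested (points, with the standard error of the edgeR fit as bars), ordered by role on the vertical axis. Filled points have an adjusted p of at most 0.05. Porcn stands at -1.36, apart from all others, and the 8 inhibitor genes tested lie between 0.01 and 1.10.

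Both genes of ligand secretion changed, in opposite directions. Porcn (Entrez gene 53627, chromosome X of mm9 from 7770974 to 7783651, minus strand) had 33.2, 39.0 and 34.5 CPM in vehicle replicates 1, 2 and 3. In BI-treated tumors its lowest value was 11.7 CPM, its median 13.9 CPM and its highest 15.1 CPM. The groups lay far apart, and the 6 BI-treated tumors differed little among themselves. The means were 35.5 ± 3.03 CPM (SD, n = 3) and 13.8 ± 1.27 CPM (SD, n = 6), a log2 change of -1.36 (standard error 0.089, adjusted p = 8.76e-06, edgeR). Of the 13966 genes tested, 3 had a smaller p and 46 a lower log2 fold change. With each tumor left out in turn, its log2 fold change ran from -1.41 to -1.29, with an adjusted p from edgeR of at most 0.000207. The epithelial markers did not move together. Krt8 and Krt18, which made up most of their summed level of 1094 ± 115 CPM under vehicle and 845 ± 94.6 CPM under BI (SD, n = 3 and 6), were called lower with log2 fold changes of -0.28 and -0.50. These 2 of 9 markers were 22.2% of the list, beside 14.1% of all genes tested that were called lower. The other 7 were not called. Over the list 4 log2 fold changes were above 0, among them Epcam (1.06, highest in BI replicate 9) and Cdh1 (0.16). The 5 below 0 included Krt14 (-0.85) and Cldn4 (-0.67), and in Cldn4 every BI-treated tumor lay below the vehicle-treated ones. The part of the epithelial markers in the fall of Porcn was not tested.

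Wls (Entrez gene 68151, chromosome 3 from 159502701 to 159598797, plus strand), whose protein carries acylated Wnt to the cell surface and returns for more, was the more abundant of both secretion genes. It had 285, 367 and 345 CPM in vehicle replicates 1 to 3, and 358 CPM at the lowest, 435 CPM at the median and 621 CPM at the highest in BI-treated tumors. All but 1 BI-treated tumor (replicate 9) lay above the vehicle-treated tumors. Its log2 fold change was 0.48 (standard error 0.16, adjusted p = 0.0414, edgeR). The adjusted p of the same edgeR test rose above 0.05 without vehicle replicate 1 (0.17), 2 (0.0601) or 3 (0.0959) and without BI replicate 6 (0.067) or 7 (0.0634). Per length, Wls exceeded Porcn by a factor of 5.88 to 6.86 under vehicle and of 17.9 to 30 under BI. These ranges did not overlap, but Porcn alone already separated the groups, whereas the CPM of Wls overlapped.

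**Figure D2:**
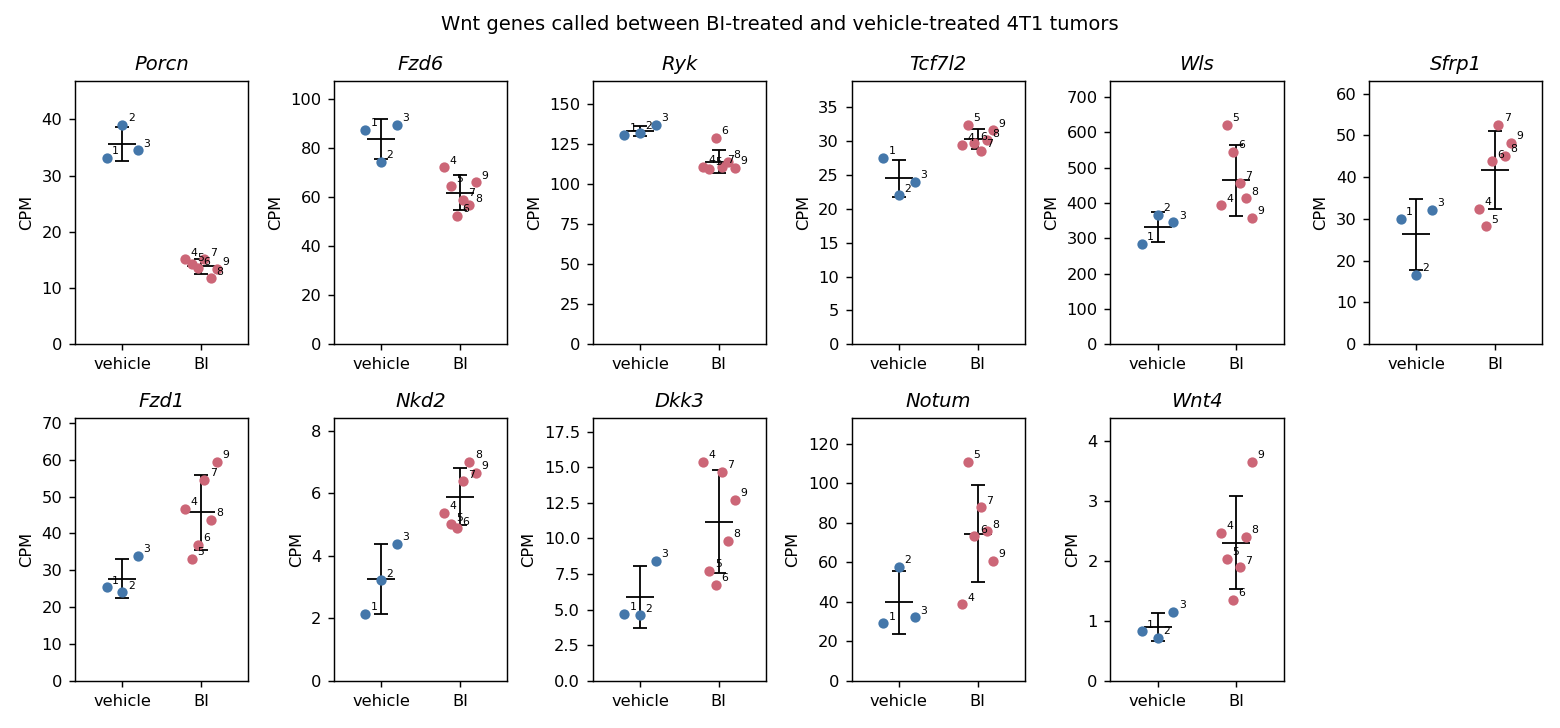
CPM per tumor (vertical axes from 0) of the 11 Wnt genes called between the groups, ordered from the largest fall to the largest rise. Points are tumors with their replicate numbers (blue vehicle, n = 3, red BI, n = 6) and the black marks are the mean ± SD. Porcn shows the widest gap, from 33.2 to 39.0 CPM under vehicle and from 11.7 to 15.1 CPM under BI, while Wls, Sfrp1, Fzd1, Dkk3 and Notum overlap between the groups.

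Of the 13 Wnt ligand genes, 11 were expressed in these tumors above edgeR's filter on low counts, and 9 reached a mean of 1 CPM in at least 1 group. Wnt7a had a single count in all 9 tumors together, in vehicle replicate 2, and cannot be called expressed at this depth. Wnt16, a ligand known from bone and skin, had 20 counts in all, with 0 to 2 per vehicle-treated tumor and 1 to 7 per BI-treated tumor, and did not pass the filter. Wnt5b and Wnt11 passed it at 5 to 20 and 7 to 23 counts per tumor, below 1 CPM on average in both groups.

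The ligand transcripts came mainly from Wnt7b, Wnt10a and Wnt6, all of them genes known from epithelia. Per length, Wnt7b stood at 108 ± 18.1, Wnt10a at 68.9 ± 18 and Wnt6 at 57.2 ± 19.2 (SD over all 9 tumors), and neighbours in this order overlapped over the tumors. The next ligand, Wnt5a, which acts mostly outside the β-catenin branch, stood at 7.04 ± 3.60, close to Wnt9a at 5.29 ± 1.12. Below them came Wnt2b at 3.21 ± 1.46, Wnt10b at 1.97 ± 0.621, Wnt2 at 1.39 ± 0.634 and Wnt4 at 1.19 ± 0.609, which did not differ from their neighbours beyond their spread. The leading 3 ligands made up 92.7% to 94.4% of the summed ligand level per length under vehicle and 83.9% to 93.6% under BI. Wnt7b was the highest ligand in every tumor, with 33.9% to 41.3% of this sum under vehicle and 42.5% to 49% under BI, whereas the share of Wnt6 was 25.4% to 28.7% under vehicle and 13.2% to 21.3% under BI. Neither share overlapped between the groups. Shares of the same sum depend on each other, however, and neither gene was called by edgeR. The CPM of each gene overlapped between the groups. The summed level of all ligands was 274 ± 35.9 and 246 ± 49.4 per length (SD, n = 3 and 6) and overlapped between the groups. Outside the list, the ligand genes Wnt1, Wnt3 and Wnt9b did not pass the filter, and Wnt3a, Wnt8a and Wnt8b were not analysed here.

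**Figure D3:**
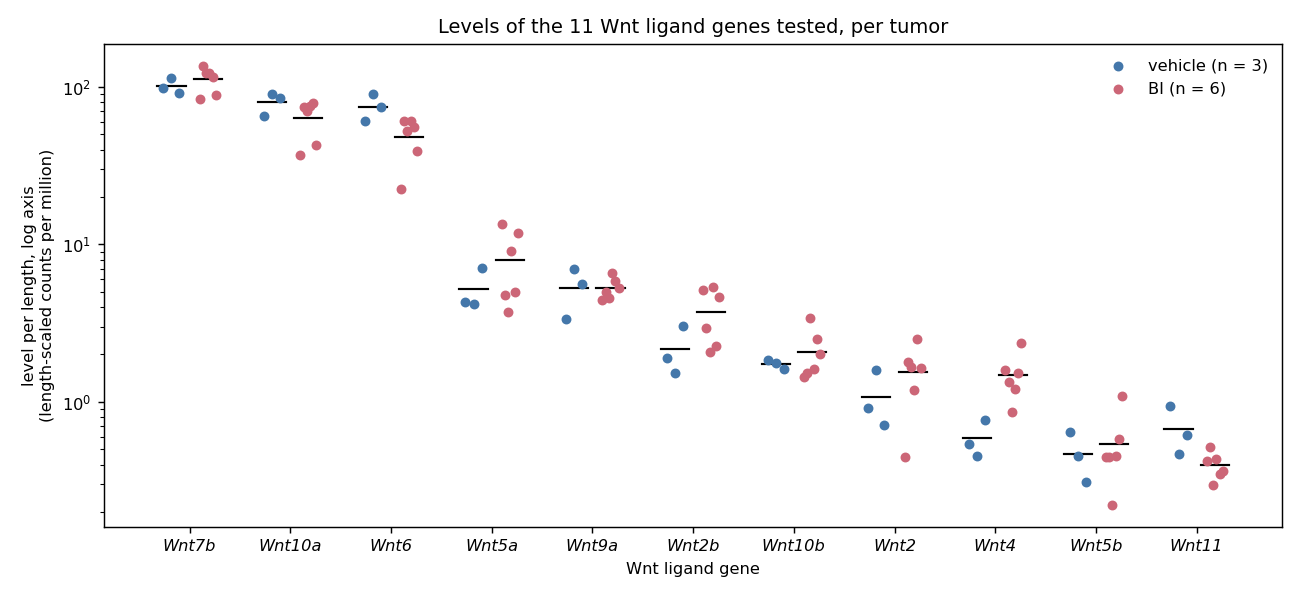
Level per length (log axis, counts per kilobase scaled to 1000000 per tumor) of the 11 Wnt ligand genes tested, ordered from the highest to the lowest mean. Points are tumors (blue vehicle, red BI) and black lines are group means. Wnt7b, Wnt10a and Wnt6 form the upper group, and Wnt4 is the ligand whose groups do not overlap.

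Among the 11 ligand genes tested, 1 rose, none fell and 10 did not pass the test, so that 9.09% were called beside 28.7% of all genes tested. Wnt4 (Entrez gene 22417, chromosome 4 from 136833404 to 136855641, plus strand), a ligand that progesterone induces in mammary epithelium, had 0.825, 0.716 and 1.15 CPM in vehicle replicates 1 to 3. Its BI values ran from 1.35 CPM over a median of 2.22 CPM to 3.65 CPM. Every BI-treated tumor was higher, at low counts of 16 to 63 per tumor. The log2 fold change of Wnt4 was 1.32 (standard error 0.316, adjusted p = 0.00923, edgeR), and it stayed called with each tumor left out in turn, at an adjusted p of at most 0.0423 from edgeR.

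Wnt7b, the most abundant ligand, had 175, 208 and 159 CPM in vehicle-treated tumors and 147, 214 and 239 CPM as the lowest, median and highest value in BI-treated tumors. These groups overlapped on both sides, with a log2 change of 0.14 (standard error 0.149, adjusted p = 0.509, edgeR). Wnt6 had 62.3 ± 13.0 CPM under vehicle and 40.6 ± 12.7 CPM under BI, and its log2 fold change of -0.62 did not pass the test (adjusted p = 0.084, edgeR). It was lowest in BI replicate 4 (18.5 CPM), without which its log2 fold change was -0.47 and its adjusted p from edgeR was 0.0423. Wnt10a, with 63.2 ± 10.6 and 50.3 ± 14.9 CPM, was likewise lowest in BI replicates 4 (29.1 CPM) and 9 (33.7 CPM). Its log2 fold change was -0.33 (adjusted p = 0.296, edgeR).

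Wnt5a and Wnt2b shared their 3 highest BI-treated tumors, replicates 4, 7 and 9. Wnt5a had 7.56, 7.52 and 12.1 CPM under vehicle and ran from 6.66 to 23.4 CPM under BI, with a median of 12.6 CPM. Those 3 tumors exceeded the vehicle range, while the other BI-treated tumors lay within or near the vehicle range (log2 fold change 0.62, standard error 0.379, adjusted p = 0.238, edgeR). Wnt2b had 3.07 ± 1.07 CPM under vehicle and 5.40 ± 2.12 CPM under BI and did not pass the test (log2 fold change 0.80, adjusted p = 0.0949, edgeR), and passed it without BI replicate 6 (0.0458) or with DESeq2 (0.0471).

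The promoters of the Wnt genes were searched for the core sequence bound by TCF/LEF factors, since several Wnt genes are themselves targets of the pathway in other settings. The RefSeq table (GRCm38.p6) holds promoters of 35 of the 53 genes, from 250 bases before to 50 bases after a start site. ATCAAAG, on either strand, occurred in 2 of these 45 promoters (4.44%), beside 3.73% of all 32851 promoters in the table. The matches were in promoters of the low ligand genes Wnt11 and Wnt5b, shown here on the gene's strand with the match in capitals. The stretch of Wnt11 lies at chr7:105983541-105983607 of mm9 (plus strand), with its match starting 51 bases before the start site, and that of Wnt5b at chr6:119399439-119399505 (minus strand), where the reverse complement starts 71 bases before it.
Wnt11: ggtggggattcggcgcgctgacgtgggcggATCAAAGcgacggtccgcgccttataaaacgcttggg
Wnt5b: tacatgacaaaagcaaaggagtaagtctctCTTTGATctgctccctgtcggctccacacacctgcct
None of the 11 called genes had the sequence in a promoter of the table, where Porcn, Notum, Dkk3, Sfrp1 and Fzd6 have no entry. Wnt11 stood at 0.756 ± 0.268 CPM under vehicle and 0.447 ± 0.0834 CPM under BI (log2 fold change -0.74, adjusted p = 0.0924, edgeR), and Wnt5b at 0.501 ± 0.182 and 0.578 ± 0.311 CPM (0.21, adjusted p = 0.754, edgeR).

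Frizzled receptor genes were expressed as a set of 5 at clear levels, led by Fzd6 at 41.4 ± 8.28 per length and followed by Fzd1 at 22.5 ± 6.94, Fzd2 at 17.8 ± 3.44, Fzd7 at 17.5 ± 1.86 and Fzd5 at 14.4 ± 1.65 (SD over 9 tumors). Fzd3 and Fzd4 lay near 3 per length, Fzd8 and Fzd9 under 1, and Fzd10, with at most 4 counts in any tumor, did not pass the filter. Of the 9 tested, 1 rose, 1 fell and 7 did not pass the test, so that 22.2% were called beside 28.7% of all genes tested. Fzd6, a receptor known for planar polarity and for restraining β-catenin signals, had 87.4, 74.3 and 89.3 CPM under vehicle, and its lowest, median and highest value under BI were 52.3, 61.7 and 72.0 CPM. No BI-treated tumor reached a vehicle-treated one, and the log2 fold change was -0.44 (standard error 0.096, adjusted p = 0.00556, edgeR). Fzd6 stayed called with each tumor left out in turn (adjusted p of at most 0.0359, edgeR).

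Fzd1, in contrast, rose. It had 25.4, 24.0 and 33.9 CPM under vehicle and 33.1, 45.2 and 59.5 CPM as the lowest, median and highest value under BI, with replicates 7 and 9 the highest. BI replicate 5 was the tumor that overlapped with vehicle replicate 3. The log2 fold change was 0.71 (standard error 0.18, adjusted p = 0.0119, edgeR), and the adjusted p from edgeR was 0.0559 without vehicle replicate 1 and 0.0567 without vehicle replicate 2. Fzd2 had 29.7 ± 2.75 and 24.3 ± 5.02 CPM and did not pass the test (adjusted p = 0.151, edgeR), except without BI replicate 7, its highest tumor (0.0111). While Fzd1 and Fzd6 moved in opposite directions, the summed level per length of all Frizzled genes differed little, 125 ± 13.0 under vehicle and 119 ± 8.27 under BI (SD, n = 3 and 6).

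The co-receptor genes were led by Ryk, a Wnt receptor with an inactive kinase domain, at 91.4 ± 8.98 per length, close to Lrp5 at 82.2 ± 9.98. Lrp6 stood at 49.3 ± 6.76, while the receptor kinases Ror2 and Ror1 were low at 2.18 ± 0.694 and 0.833 ± 0.324 (SD over 9 tumors). Of these 5 genes 1 fell and none rose, 20% beside 28.7% of all genes tested. Ryk had 131, 132 and 137 CPM under vehicle and 109.6, 111 and 129 CPM as the lowest, median and highest value under BI. The difference was small but without overlap, a log2 change of -0.22 (standard error 0.0609, adjusted p = 0.0173, edgeR), and the adjusted p from edgeR was 0.0763 without vehicle replicate 3. Lrp5 and Lrp6, the canonical co-receptors, had log2 fold changes of 0.09 (adjusted p = 0.535, edgeR) and -0.16 (adjusted p = 0.279, edgeR).

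All 8 genes tested for secreted inhibitors had log2 fold changes above 0, and 3 of them rose, 37.5% beside 14.6% of all genes tested. With limma-voom, those of Frzb (-0.0025) and Wif1 (-0.16) lay below 0. In none of the 8 genes did the groups lie apart, beside 14.1% of all genes tested that were separated upward. Only the summed level per length of the inhibitors, from 68.0 to 94.1 under vehicle and from 97.5 to 184 under BI, was without overlap. Most of this level came from Notum, a secreted enzyme that removes the lipid which Porcupine attaches to Wnt, and itself a target gene of β-catenin in other tissues. Notum (Entrez gene 77583, chromosome 11 from 120515102 to 120522489, minus strand) had 29.2, 57.9 and 32.1 CPM under vehicle and 38.8, 74.4 and 111 CPM as the lowest, median and highest value under BI. Only BI replicate 4 fell inside the vehicle range. The log2 fold change was 0.91 (standard error 0.293, adjusted p = 0.036, edgeR). The adjusted p from edgeR passed 0.05 without vehicle replicate 1 (0.146) or 3 (0.144), and without BI replicate 5 (0.054), 7 (0.0656) or 8 (0.0531). Exons of Notum overlap those of 4732444A12Rik and Gm11768 on the other strand, and the strand setting of the counts is not given in the sources used here.

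Dkk3, listed with the inhibitors as a member of the Dickkopf family, had 4.72, 4.61 and 8.43 CPM under vehicle. Under BI its lowest, median and highest values were 6.76, 11.3 and 15.4 CPM. Its log2 fold change was 0.90 (standard error 0.289, adjusted p = 0.0361, edgeR). The highest tumors were BI replicates 4, 7 and 9, and the adjusted p from edgeR rose to 0.06, 0.0682 and 0.057 without each of them, and to 0.135 and 0.132 without vehicle replicates 1 and 2. With limma-voom it was 0.0568. Sfrp1, which encodes a soluble Frizzled-like protein that binds Wnt, had 30, 16.6 and 32.2 CPM under vehicle and 28.2, 44.4 and 52.5 CPM as the lowest, median and highest value under BI. BI replicate 5 lay inside the vehicle range. The log2 fold change of Sfrp1 was 0.66 (standard error 0.225, adjusted p = 0.0451, edgeR). This was the call nearest the threshold: DESeq2 gave 0.0539, and edgeR gave 0.0722 and 0.168 without vehicle replicates 1 and 2, and 0.0659, 0.0838, 0.0707 and 0.0724 without BI replicates 6, 7, 8 and 9. Without vehicle replicate 2 its log2 fold change was 0.42.

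The remaining inhibitors did not pass the test. Sfrp2 had 8.45 ± 5.03 and 17.1 ± 6.87 CPM (log2 fold change 0.98, adjusted p = 0.0746, edgeR), and passed without vehicle replicate 3 (0.0187) or BI replicate 6 (0.0307). Sfrp4 had 1.26 ± 0.904 and 2.84 ± 1.68 CPM (adjusted p = 0.164, edgeR). Dkk2, Frzb and Wif1 were low, with log2 fold changes of at most 0.15. Markers of fibroblasts, cells known to make several of these inhibitors, stood at a summed 2116 to 3685 CPM under vehicle and 2825 to 6368 CPM under BI. Of these 9 markers, 2 were called higher (22.2%, beside 14.6% of all genes tested) and none was at 0. All 9 markers and their sum overlapped between the groups. The part of fibroblasts in the inhibitor levels was not tested.

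In the R-spondin receptor module, which sets how much Frizzled stays on the cell surface, none of 4 genes passed edgeR's test, beside 28.7% of all genes tested. Before adjustment 2 of them (Lgr5 and Rnf43) were at 0.05 or less, and the share of all genes at that limit was not counted. Znrf3, a ubiquitin ligase that removes Frizzled, was the most abundant, with 36.4, 36.9 and 45.2 CPM under vehicle and 36.5, 40.0 and 47.2 CPM as the lowest, median and highest value under BI (log2 fold change 0.04, standard error 0.0996, adjusted p = 0.776, edgeR). Lgr5, a receptor for R-spondins and a marker of stem cells in several epithelia, was low, with 6 to 20 counts per vehicle-treated tumor and 7 to 46 per BI-treated tumor. Its level was 0.423 ± 0.161 and 1.31 ± 0.834 CPM, a log2 fold change of 1.57 with a standard error of 0.569 (adjusted p = 0.0575, edgeR). It passed without BI replicate 5 (0.0211) or 6 (0.0367) and with DESeq2 (0.0207). Rnf43, the other ligase, had 0.568 ± 0.318 and 1.02 ± 0.215 CPM (adjusted p = 0.0845, edgeR), and passed without vehicle replicate 1 (0.0258) and with limma-voom (0.0477). Lgr4 had 21.8 ± 5.19 and 26.8 ± 7.58 CPM (adjusted p = 0.341, edgeR).

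Inside the cell, Ctnnb1, which encodes β-catenin, was by far the most abundant of all Wnt genes at 649 ± 52.8 per length. It had 959.9, 1025 and 1072 CPM under vehicle and 839, 912 and 968 CPM as the lowest, median and highest value under BI. The log2 fold change of Ctnnb1 was -0.16 (standard error 0.0683) and did not pass edgeR's test (adjusted p = 0.103), while DESeq2 gave 0.0441. Exons of Ulk4 on the other strand overlap those of Ctnnb1. Such overlap also holds for Wnt7b (AU022754), Wnt5a (Gm2670), Wnt11 (Gm8398), Sfrp2 (Gm16790), Axin2 (Gm11670) and Tcf7l1 (Gm15401). Axin1, a scaffold of the destruction complex, had 97.0 ± 0.657 and 89.3 ± 3.58 CPM without overlap (log2 fold change -0.12, adjusted p = 0.0953, edgeR). Axin2, the scaffold whose gene is a general readout of β-catenin signaling, had 4.56 ± 0.822 and 5.67 ± 1.43 CPM with BI replicate 6 below and the other BI-treated tumors above the vehicle range (log2 fold change 0.31, adjusted p = 0.32, edgeR).

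Nkd2, which encodes a Dishevelled-binding antagonist, rose. It had 2.15, 3.22 and 4.39 CPM under vehicle and 4.88, 5.89 and 7.02 CPM as the lowest, median and highest value under BI, without overlap. Its log2 fold change was 0.83 (standard error 0.214, adjusted p = 0.0131, edgeR), with an adjusted p of 0.0524 from edgeR without vehicle replicate 1. The related gene Nkd1 had 1.16 ± 0.168 and 1.92 ± 0.715 CPM (log2 fold change 0.70, adjusted p = 0.102, edgeR).

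Of the 4 TCF/LEF genes, Tcf7l1, often a repressor of target genes, was the most abundant at 58.4 ± 5.47 per length. Tcf7l1 had 64.5, 78.1 and 63.0 CPM under vehicle and 58.0, 63.0 and 72.0 CPM as the lowest, median and highest value under BI, and did not pass the test (adjusted p = 0.455, edgeR). Tcf7l2 had 27.5, 22 and 24.0 CPM under vehicle and 28.6, 29.9 and 32.4 CPM as the lowest, median and highest value under BI. Every BI-treated tumor was above the vehicle-treated ones, with a log2 change of 0.31 (standard error 0.0797, adjusted p = 0.0134, edgeR), and the adjusted p from edgeR was 0.0675 without vehicle replicate 2 and 0.0586 without vehicle replicate 3. Tcf7 and Lef1, which T cells also express, did not pass the test, with 15.7 ± 1.47 and 14.4 ± 1.32 CPM for Tcf7 and 1.68 ± 0.486 and 2.26 ± 0.287 CPM for Lef1. T cell markers all rose in the same tumors (7 of 7, beside 14.6% of all genes tested). Their summed level was 52.7 to 56.9 CPM under vehicle and 93.4 to 134 CPM under BI.

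Further genes of the pathway were taken from 5 lists of 78 genes, of which 62 were tested. In all, 4 rose and 9 fell, 21.0% beside 28.7% of all genes. Among 16 genes tested of a list of β-catenin target genes, 6 fell and 1 rose, 43.8% beside 28.7% of all genes tested. This list held none of the Wnt genes described above. It thus left out Notum and Axin2, described above as a target gene and a readout of β-catenin. Notum rose (log2 fold change 0.91, adjusted p = 0.036, edgeR), and Axin2 was not called (0.31, adjusted p = 0.32, edgeR). Lgr5, Rnf43, Nkd1, Lef1 and Znrf3 were left out as well. Their log2 fold changes were 1.57, 0.89, 0.7, 0.43 and 0.04, and edgeR called none of them. Over all Wnt genes tested, 35 log2 fold changes were above 0 and 14 below. Which of these genes are β-catenin targets in these tumors was not tested. The shares of this list therefore do not describe all β-catenin targets measured here. Fosl1, a partner of Jun in AP-1, fell from 72.6 ± 5.04 to 41.2 ± 7.80 CPM (log2 fold change -0.82, adjusted p = 0.000763, edgeR). The growth regulator Myc fell from 158 ± 2.53 to 111 ± 14.7 CPM (-0.51, adjusted p = 0.00229, edgeR), and the receptor gene Ephb2 from 13.4 ± 1.06 to 7.16 ± 1.82 CPM (-0.90, adjusted p = 0.00358, edgeR). Ephb3 rose from 0.897 ± 0.351 to 1.95 ± 0.571 CPM (1.09, adjusted p = 0.0239, edgeR). Most of these targets also answer to other pathways. Of 7 markers of cycling cells, 4 were called lower in the same tumors (57.1%, beside 14.1% of all genes tested). Their summed level was 1678 to 2314 CPM under vehicle and 1138 to 1722 CPM under BI, with overlap. The part of cycling cells in the target gene values was not tested.

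Of 23 genes tested for signal transduction, 3 rose and 2 fell, 21.7% beside the 28.7% of all genes. Those that rose were Tnik, a kinase that binds TCF7L2, and the Groucho co-repressors Tle4 and Tle1. Tnik had 1.77 ± 0.367 CPM under vehicle and 5.09 ± 1.23 CPM under BI (log2 fold change 1.51, adjusted p = 0.000777, edgeR), Tle4 had 13.8 ± 0.898 and 21.5 ± 1.04 CPM (0.64, adjusted p = 0.000153, edgeR), and Tle1 had 22.4 ± 1.05 and 30.9 ± 4.18 CPM (0.46, adjusted p = 0.00778, edgeR). Tnks2, a tankyrase that destabilizes Axin, and Dvl2, a Dishevelled, fell by 0.29 and 0.33 on the log2 scale (adjusted p = 0.00397 and 0.00474, edgeR). In the planar polarity list, 1 of 13 genes fell, Vangl1 (log2 fold change -0.23, adjusted p = 0.0144, edgeR), and none rose, 7.69% beside the 28.7% of all genes. No gene of the 10 tested from a list of other extracellular regulators was called by edgeR, beside the 28.7% of all genes. Before adjustment 1 was at 0.05 or less, and the share of all genes at that limit was not counted.

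Which of the 6 BI-treated tumors were highest differed between Wnt genes. Every gene has 3 highest tumors, so such an order does not show more spread here than in other genes. In 8 of the 49 genes tested (Wnt2b, Wnt5a, Fzd1, Fzd8, Ror2, Dkk2, Dkk3 and Axin2) the 3 highest BI-treated tumors were replicates 4, 7 and 9, a pattern that 8.44% of all genes tested had as well and that was picked out after the values were seen. The same 3 tumors had the highest summed fibroblast markers, 5678, 5583 and 6368 CPM, beside 2825 to 4315 CPM in the other BI-treated tumors. Most of this sum came from Col1a1, Col1a2 and Col3a1. Pdgfra alone of these markers had another order, with 824 and 662 CPM in replicates 5 and 6 and 348 and 376 CPM in replicates 4 and 9. The part of fibroblasts in this order was not tested. Replicates 7, 8 and 9 were the 3 highest in a larger set: Wnt5b, Wnt9a, Ror1, Sfrp1, Sfrp2, Frzb, Lgr5, Nkd1, Nkd2 and Lef1. The share of all genes with that order was not counted. Wnt6 and Wnt10a were lowest in replicates 4 and 9. Porcn, between 11.7 and 15.1 CPM, and Tcf7l2, between 28.6 and 32.4 CPM, varied little across the same 6 tumors.

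**Figure D4:**
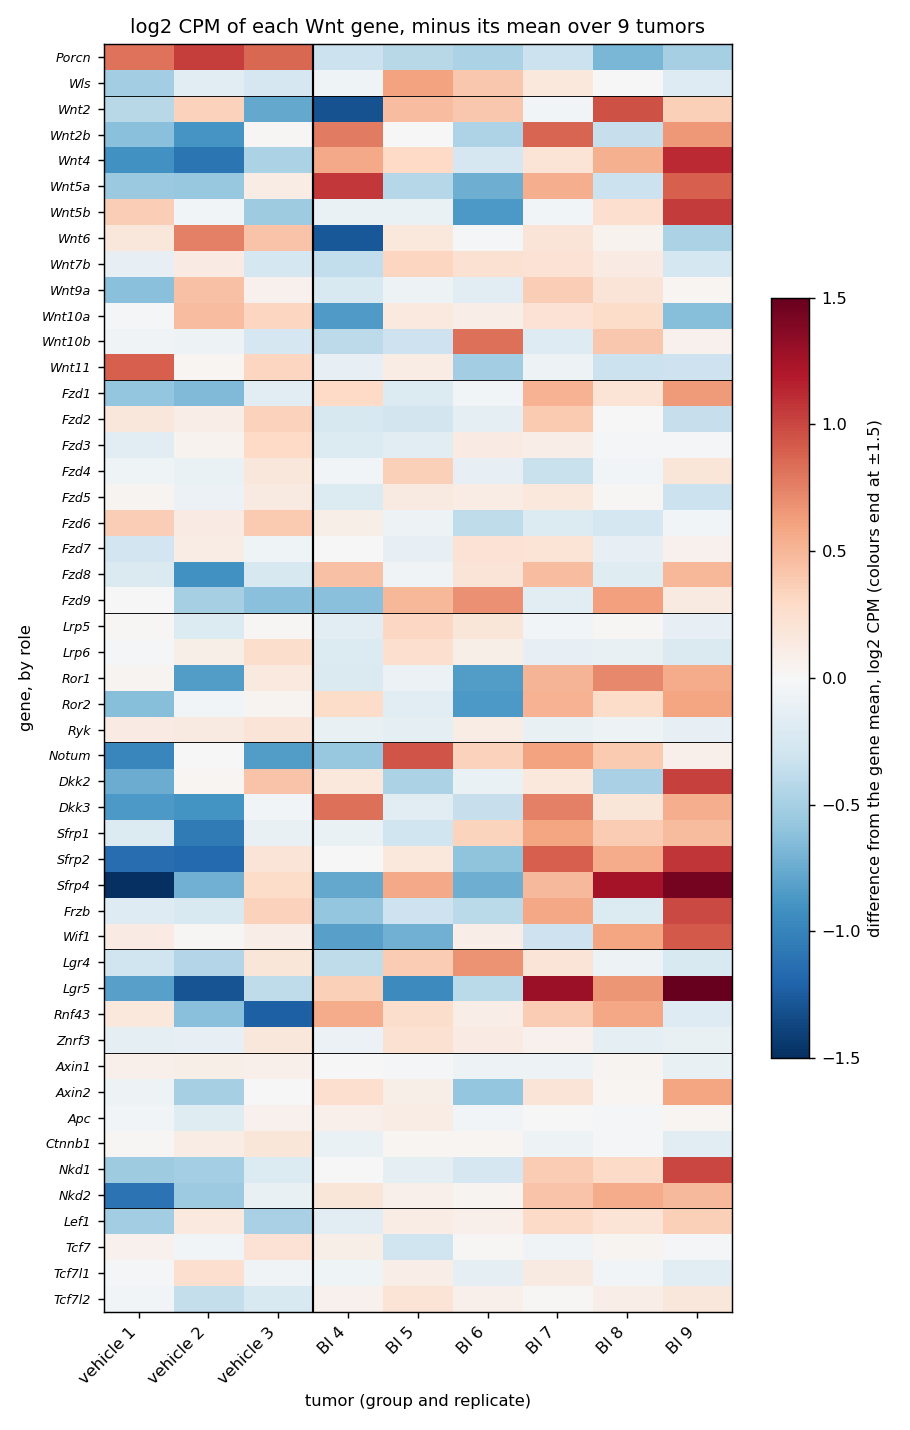
Difference of log2 CPM from the mean of each gene over 9 tumors (colour, red above and blue below the mean) for the 49 Wnt genes tested, with tumors in columns, a black line between vehicle and BI, and thin lines between roles. Porcn is above its mean in the 3 vehicle-treated and below it in the 6 BI-treated tumors, and Wnt5a, Wnt2b and Dkk3 are darkest red in BI replicates 4, 7 and 9.

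Markers of some other cell types were called between the groups as well. Macrophage markers rose in 6 of 6 genes (1368 to 1813 CPM under vehicle, 2632 to 3342 CPM under BI), beside 14.6% of all genes tested. Endothelial markers rose in 3 of 7 (42.9%) and B cell markers in 2 of 4 (50%), where Cd79a had a log2 fold change of -0.33. Markers of pericytes and smooth muscle rose in 1 of 6 (16.7%), near the share of all genes. The summed levels of these last 3 lists overlapped between the groups. Neutrophil markers fell in 3 of 4 genes (499 to 721 CPM under vehicle, 203 to 353 CPM under BI), beside 14.1% of all genes tested. None of the markers of adipocytes, skeletal muscle or nerve was called by edgeR, beside 28.7% of all genes tested. Before adjustment 1 of 5, 0 of 5 and 2 of 4 of them were at 0.05 or less, and the share of all genes at that limit was not counted. How far these shifts enter the Wnt gene values was not tested.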

How the data were processed

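Per the labels and the study's methods, total RNA of snap-frozen tumor pieces was made into stranded mRNA libraries for paired-end sequencing. Reads were aligned by the authors with STAR to mm9. The authors kept those with 1 alignment, counted with QuasR the ones starting in an exon of a RefSeq gene, and deposited these raw counts with a gene length in bases. Tumors with RNA of low quality had been left out by the authors. RNA quality per tumor is not given in the sources used here.

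Entrez identifiers were paired with RefSeq symbols (18700 of 18755 genes), and mm9 positions came from GENCODE. In R 4.3.3, edgeR 4.0.16 filtered genes by filterByExpr (at least 10 counts, 15 in total), scaled libraries by TMM and compared BI with vehicle by its quasi-likelihood test without covariates, with Benjamini-Hochberg adjustment over 13966 genes. The standard error is the log2 fold change divided by the root of F. On simulated counts with 2-fold changes for this comparison, 84.3% of 197 changed genes among 13866 were called. Between pairs of libraries, the mean chi-square per gene was at least 8.48, so no library was a repeat of another. No batch is labelled.

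Each vehicle value and the lowest, median and highest BI value are given for the called genes and the most abundant gene of each role, and for other pathway lists the 3 genes with the smallest p in each direction. The Wnt genes, the 5 pathway lists, the 12 marker lists and the tests were chosen with earlier results of these data known. Alternatives were RLE or library size, no filter, a filter of 1 CPM in 3 tumors, DESeq2 1.42.0, limma-voom (limma 3.58.1), the study's unadjusted cutoffs and leaving out each tumor.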

Additional observations from a re-analysis of the deposited data

Results flagged for a closer look

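Among the 49 Wnt genes tested, a single tumor stood apart from the other 5 BI-treated tumors in 2 genes, by Dixon's ratio of the gap to the range, and chance gives about 1 in 20. Ryk had 129 CPM in BI replicate 6, beside 109.6 to 114 CPM in the others (ratio 0.793, limit 0.625). Dkk2 had 1.80 CPM in BI replicate 9, beside 0.571 to 0.945 CPM in the others (ratio 0.695, limit 0.625).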

How the results depend on the processing

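No paired analysis was made, since the labels pair no vehicle-treated tumor with a BI-treated one. Porcn, Wnt4 and Fzd6 stayed called in all 9 fits that left out 1 tumor, and 8 of the 11 called Wnt genes lost the call in at least 1. Under RLE or library size, without a filter, with the stricter filter, DESeq2 and limma-voom, 9 of the 11 stayed called, Dkk3 and Sfrp1 being the exceptions. With each tumor left out, 3 to 9 Wnt genes rose and 2 to 4 fell, and over all genes 1332 to 2026 rose and 1172 to 1980 fell. The study's unadjusted cutoffs gave 12 higher and 3 lower Wnt genes, and 1339 higher and 499 lower over all genes tested. No called Wnt gene changed sign. Signs of uncalled genes near 0 did: the log2 fold change of Fzd4 was -0.0037 without a filter, -0.0019 with DESeq2 and -0.04 with limma-voom, that of Frzb -0.0025 and of Wif1 -0.16 with limma-voom. With each tumor left out it ran from -0.08 to 0.1 for Fzd4, -0.23 to 0.27 for Wnt9a, -0.01 to 0.15 for Znrf3, -0.13 to 0.5 for Dkk2, -0.15 to 0.01 for Tcf7l1, -0.23 to 0.15 for Wif1, -0.22 to 0.02 for Fzd3, -0.1 to 0.01 for Fzd5 and -0.09 to 0.5 for Wnt5b. The causes were not tested. Wnt7a, Wnt16 and Fzd10 had too few counts to be tested.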
